A study of Mus musculus with 12 samples.

Results

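The 28 genes described here encode the enzymes and regulators of sterol and fatty acid synthesis. They were taken as a given list by their known function, though the list was chosen with earlier results of these data known. All 28 are among the 31053 genes counted. By role, 7 belong to the mevalonate branch (Acat2, Hmgcs1, Mvk, Pmvk, Mvd, Idi1 and Fdps), 10 lead from squalene to cholesterol (Fdft1, Sqle, Lss, Cyp51, Msmo1, Nsdhl, Hsd17b7, Ebp, Sc5d and Dhcr7), 3 are regulators (Insig1, Srebf1 and Srebf2) and 8 act on fatty acids (Acly, Acaca, Fasn, Elovl6, Scd1, Scd2, Fads1 and Fads2). The first 2 groups together are called the 17 sterol enzymes.

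All cells were live T cells, sorted by their T cell receptor from pancreatic islets of female NOD mice, a strain that develops autoimmune diabetes, taken at 12 weeks of age while still pre-diabetic. The 4 biological replicates each gave 1 mRNA library, with antibody counts for CD4, CD8b, CD62L and CD11a, and 1 library of T cell receptor sequences. Whether each replicate came from 1 mouse or from several is not stated, so p-values measure the spread between these 4 libraries. Within each library, cells were split here into CD8 cells, Treg (CD4 cells with at least 1 UMI of Foxp3) and CD4 conventional cells (CD4 cells with no UMI of Foxp3 or Cd8), and each lineage was split by the surface count of CD62L, the homing receptor of naive and stem-like T cells: low is at most 3 antibody UMIs, high at least 10.

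Animal cells build cholesterol from acetyl-CoA through mevalonate, the isoprenoid diphosphates, squalene and lanosterol, and build fatty acids from the same acetyl-CoA through malonyl-CoA. The membrane-bound factors SREBP-1 and SREBP-2, encoded by Srebf1 and Srebf2, switch on most of these genes when the endoplasmic reticulum is low in sterol, and INSIG1 holds them back when sterol is plentiful. T cells are known to raise this programme when they are activated and divide, since new membrane needs both lipids.

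SREBP acts at promoters together with the CCAAT-binding factor NF-Y. Promoter sequences from RefSeq (GRCm38.p6) were at hand for 22 of the 28 genes. The 250 bases before the start of 4 of them are shown: Hmgcs1, Idi1 and Cyp51 are sterol enzymes whose levels are given in detail, and Elovl6 is a tested member that did not pass the test with cycling in any lineage. They were chosen after the values were seen. They lie at chr13:119690101-119690350 (Hmgcs1, plus strand), chr13:8885356-8885605 (Idi1, plus strand), chr5:4104698-4104947 (Cyp51, minus strand) and chr3:129532136-129532385 (Elovl6, plus strand), and each reads 5′ to 3′ towards the gene. Capitals mark CCAAT or its reverse complement ATTGG, and, in Hmgcs1, 1 match to the sterol regulatory element searched as TCACNCCAC.
Hmgcs1: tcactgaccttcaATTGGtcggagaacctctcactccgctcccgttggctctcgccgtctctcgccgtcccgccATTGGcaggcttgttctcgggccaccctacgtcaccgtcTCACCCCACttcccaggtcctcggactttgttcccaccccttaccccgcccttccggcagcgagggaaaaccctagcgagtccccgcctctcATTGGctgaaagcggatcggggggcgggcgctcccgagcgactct
Idi1: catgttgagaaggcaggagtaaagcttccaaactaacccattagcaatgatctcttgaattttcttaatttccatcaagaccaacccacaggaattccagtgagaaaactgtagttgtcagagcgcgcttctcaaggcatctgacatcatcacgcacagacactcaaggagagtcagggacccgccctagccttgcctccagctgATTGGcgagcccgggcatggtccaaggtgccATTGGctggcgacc
Cyp51: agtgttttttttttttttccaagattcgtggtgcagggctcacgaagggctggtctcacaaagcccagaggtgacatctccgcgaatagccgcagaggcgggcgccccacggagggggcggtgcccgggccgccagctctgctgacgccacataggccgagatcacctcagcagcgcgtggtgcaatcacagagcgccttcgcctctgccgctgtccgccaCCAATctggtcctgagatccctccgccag
Elovl6: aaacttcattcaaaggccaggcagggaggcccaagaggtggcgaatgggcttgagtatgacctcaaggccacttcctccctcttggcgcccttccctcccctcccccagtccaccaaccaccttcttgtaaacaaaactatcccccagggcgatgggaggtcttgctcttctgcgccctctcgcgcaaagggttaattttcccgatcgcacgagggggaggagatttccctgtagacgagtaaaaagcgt
The Hmgcs1 window holds 3 CCAAT boxes and the Idi1 window 2, the Cyp51 window holds 1, at 29 bases before the start, and the Elovl6 window holds none. On either strand, CCAAT was found in 13 of the 14 sterol enzymes with a sequence (92.9%), in 3 of 3 regulators and in 1 of 5 fatty acid genes, against 10133 of 27025 genes (37.5%) over windows of the same length, with a gene counted if any of its listed windows held a match. Acat2, Acly and Acaca have no match either, and all 3 rose in cycling CD8 cells. The Acaca window, chr11:84195188-84195437, lies inside the annotated gene, chr11:84129635-84401651, so it does not cover the bases before the annotated gene start. The Fasn window, chr11:120824548-120824797, also lies inside its gene, chr11:120805958-120825166. Both genes are among the 5 fatty acid genes counted. All listed windows of the regulator Srebf1 lie inside its gene, chr11:60199084-60224186. The only Dhcr7 window with matches, chr7:143829964-143830213, lies inside its gene, chr7:143823167-143848410. Dhcr7 is among the 13 sterol enzymes counted and Srebf1 among the 3 regulators. A pair or more of CCAAT matches was present in 9 of the 14 sterol enzymes (64.3%), Dhcr7 among them, against 11.5% of all genes. The TCACNCCAC match in Hmgcs1, 137 bases before the start, was the only one among the 22 genes (4.55%), against 331 of all genes (1.22%). A match describes these letters and is not evidence of binding.

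The 4 mRNA libraries held 4136 to 8718 cell barcodes and 26861163 to 37834174 UMIs. After the filters for T cells, 3285 to 7114 cells per library remained and 2845 to 4642 of them fell in the 3 lineages. Replicates 3 and 4 stood apart from replicates 1 and 2: 56.7% and 63.1% of their kept cells had a TRB chain, against 84.5% and 85.0%, and their median UMIs per cell were 2842.5 and 2610, against 3808 and 4162. Pairs of libraries shared 36 to 102 barcodes. The 5 T cell markers were above 0 in 36 of 36 sums of cells, and of the endothelial and stromal markers Pecam1 was at 0 in 0 sums, Col1a1 in 19 and Col3a1 in 35. Summed B cell markers ranged over 0 to 24.3 CPM, myeloid markers over 0 to 33.9 CPM, endothelial and stromal markers over 5.8 to 154.4 CPM, and acinar markers, RNA of the surrounding pancreas, over 5.6 to 1263.3 CPM. Summed endocrine markers stood apart in replicate 3, at 336.8 CPM in cycling and 1101.7 CPM in resting CD62L-low CD8 cells, against 2.1 to 10.5 CPM and 5.1 to 20.7 CPM in the other libraries, and at 241.9 CPM in cycling CD62L-low CD4 conventional cells, against 9.4 to 22.9 CPM. Without replicate 3, 24 members were called higher in CD8 cells and 23 in CD4 conventional cells by cycling, and 11 and 7 by CD62L. CPM, the unit of all levels below, is the number of UMIs of a gene in every 1000000 UMIs of all genes, summed over the cells of a group in 1 library. Each molecule is counted once whatever its length, and a level is a share of a group's RNA, so that it does not separate RNA per cell from the number of cells with the gene.

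Cycling cells were compared with resting cells within each lineage among CD62L-low cells, a cycling cell having at least 2 UMIs summed over Mki67, Top2a, Birc5, Cdk1 and Ccnb2, genes of the dividing cell. The summed 17 sterol enzymes were at 642.4 to 980.0 CPM in cycling CD8 cells, against 291.1 to 379.3 CPM in resting ones. In cycling Treg the sum was 697.1 to 902.4 CPM, against 328.8 to 510.0 CPM in resting Treg. In cycling CD4 conventional cells it was 606.5 to 972.6 CPM, against 318.8 to 341.5 CPM in resting ones. Every cycling sum lay above every resting sum of its lineage, and replicate 4 was the highest of the cycling sums in each lineage. The 3 cycling populations averaged 772.8 ± 149.9 CPM for CD8 cells, 763.5 ± 154.0 CPM for CD4 conventional cells and 756.3 ± 97.7 CPM for Treg (SD, n = 4 each), and these differ by less than their spread.

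**Figure D1:**
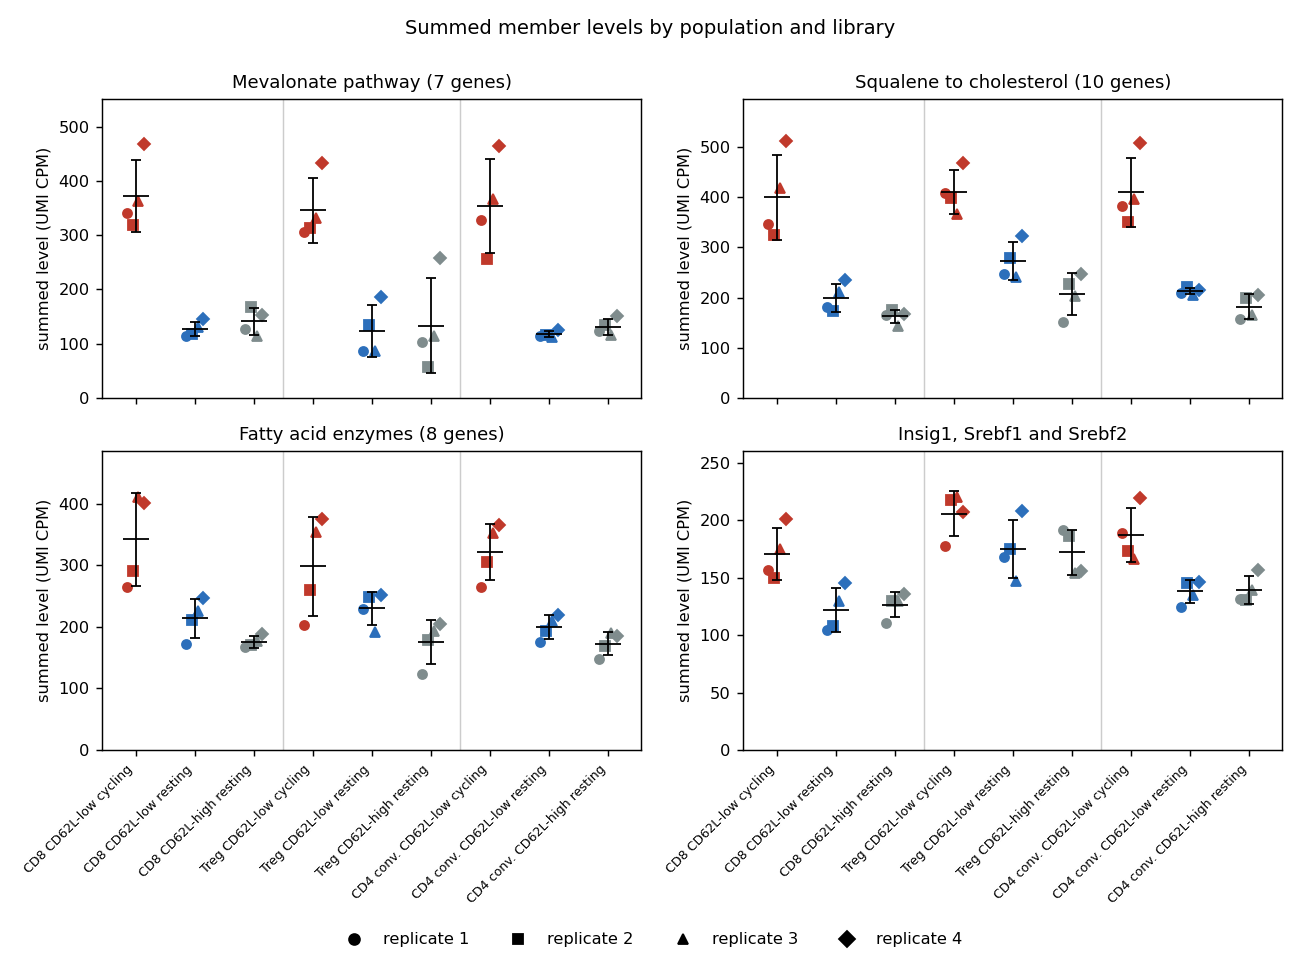
Summed level (CPM) of the mevalonate genes, the genes from squalene to cholesterol, the fatty acid genes and the regulators, by lineage, in cycling and resting CD62L-low and resting CD62L-high cells, with 1 point per library and mean ± SD in black. The mevalonate sum is at 318.2 to 468.6 CPM in cycling CD8 cells, against 115.1 to 145.1 CPM in resting CD62L-low ones, while the fatty acid sums of Treg overlap, at 203.5 to 374.6 CPM when cycling against 191.9 to 251.0 CPM when resting.

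Gene by gene, 25 of the 26 members tested rose in cycling CD8 cells and none fell, in a comparison in which 29.7% of all genes were called higher and 29.0% lower (edgeR's quasi-likelihood test with Benjamini-Hochberg adjustment over all genes, adjusted p under 0.05, as for every call below). In cycling CD4 conventional cells 24 of 26 rose and none fell, against 29.4% of all genes called higher and 29.7% lower. In cycling Treg, which had 30 to 48 cells per library, 13 of 24 rose and none fell, against 24.6% called higher and 20.5% lower. The median log2 difference of the members was 0.94 in CD8 cells, 1.06 in CD4 conventional cells and 0.76 in Treg, beside medians of -0.04, -0.04 and -0.02 over all genes tested. The 2 members left out in each case are Scd1 and Fads2, and in Treg also Mvk and Mvd, which failed the filter on low counts.

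**Figure D2:**
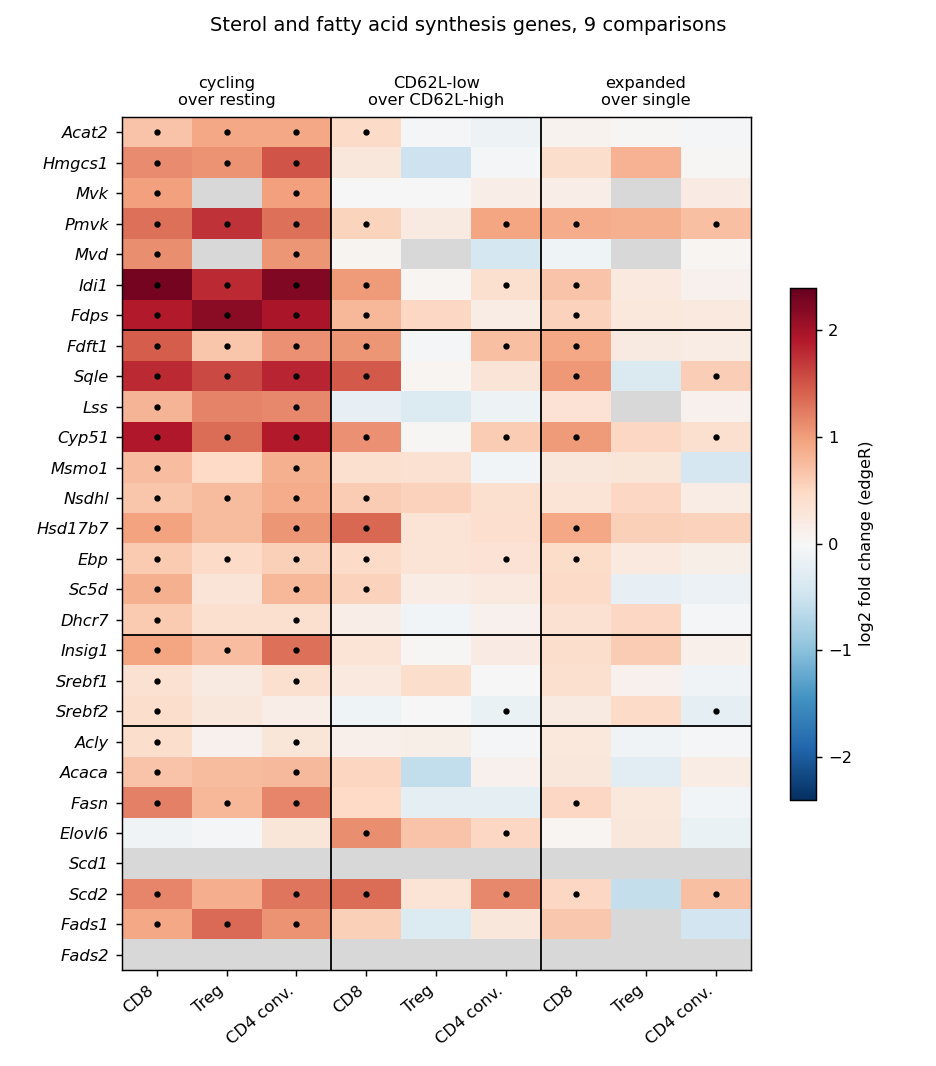
Heat map of the log2 difference of each of the 28 genes (rows, by role) in the cycling, CD62L and clone comparisons of the 3 lineages (columns), red for higher and blue for lower, with a dot where the adjusted p is under 0.05 and grey where a gene was not tested. The cycling columns are red for nearly every gene, deepest for Idi1 in CD8 cells (2.30) and CD4 conventional cells (2.21), and Elovl6 is pale there and red in the CD62L comparison of CD8 cells (1.12).

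All 7 mevalonate genes rose in cycling CD8 and cycling CD4 conventional cells, as did the 5 tested in Treg. Idi1, which isomerises isopentenyl diphosphate, was at 108.9, 103.1, 101.9 and 132.2 CPM in cycling CD8 cells of replicates 1 to 4, against 16.7, 17.5, 28.9 and 29.4 CPM in resting CD8 cells. The groups did not overlap, and the log2 difference was 2.30 ± 0.13 (SE, adjusted p = 3.8e-12). Fdps, the farnesyl diphosphate synthase whose product also feeds protein prenylation, was at 89.8, 84.4, 116.1 and 164.3 CPM in cycling CD8 cells, against 25.1, 33.2, 29.5 and 36.1 CPM in resting ones. Its log2 difference was 1.90 ± 0.12 (SE, adjusted p = 3.2e-11), and again no cycling library came within the resting range. In CD4 conventional cells, Idi1 was at 87.9, 66.7, 96.8 and 121.2 CPM when cycling, against 19.3, 21.2, 17.9 and 24.9 CPM when resting, a log2 difference of 2.21 ± 0.12 (SE, adjusted p = 3.5e-13) with no overlap. Hmgcs1, the HMG-CoA synthase, was at 49.0, 36.8, 44.6 and 74.9 CPM in cycling CD4 conventional cells, against 20.1, 14.7, 19.6 and 21.4 CPM in resting ones. Every cycling library was above every resting library for this gene (log2 difference 1.50 ± 0.13 SE, adjusted p = 1.1e-09). In Treg, Idi1 was at 95.9, 78.3, 52.6 and 121.2 CPM when cycling, against 21.0, 24.3, 17.8 and 48.1 CPM when resting (log2 difference 1.79 ± 0.19 SE, adjusted p = 2.5e-09). Fdps in cycling Treg was at 109.0, 120.5, 122.7 and 150.4 CPM, against 16.2, 29.2, 14.2 and 64.1 CPM in resting Treg (log2 difference 2.16 ± 0.22 SE, adjusted p = 4.2e-08). Neither gene overlapped between the groups, although resting Treg of replicate 4 stood well above the other resting Treg.

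Of the steps from squalene to cholesterol, 10 of 10 rose in cycling CD8 cells, 10 of 10 in CD4 conventional cells and 5 of 10 in Treg. Cyp51, the lanosterol demethylase, was at 51.6, 55.3, 75.1 and 99.4 CPM in cycling CD8 cells, against 14.8, 16.6, 17.6 and 28.2 CPM in resting ones (log2 difference 1.91 ± 0.13 SE, adjusted p = 5.6e-11). In CD4 conventional cells it was at 80.3, 58.4, 76.4 and 105.9 CPM when cycling, against 22.2, 24.0, 19.8 and 24.1 CPM when resting (1.89 ± 0.12 log2, SE, adjusted p = 1.7e-11). In Treg it was at 74.1, 75.3, 50.6 and 80.8 CPM when cycling, against 24.2, 32.1, 24.9 and 41.4 CPM when resting (1.33 ± 0.19 log2, SE, adjusted p = 8.8e-07). The cycling and resting libraries did not overlap for Cyp51 in any lineage. Fdft1, the squalene synthase, was at 58.0, 48.6, 53.6 and 77.0 CPM in cycling CD8 cells, against 15.4, 19.3, 27.4 and 24.8 CPM in resting ones, with no overlap (1.46 ± 0.15 log2, SE, adjusted p = 2.6e-08). Its gene body overlaps that of Ctsb in the annotation, and the sources used here do not say whether reads were counted by strand. Ebp, a sterol isomerase, was at 67.7, 91.4, 94.5 and 94.1 CPM in cycling CD4 conventional cells, against 60.1, 62.1, 59.1 and 61.8 CPM in resting ones. The groups did not overlap, though replicate 1 was close to the resting range (0.58 ± 0.09 log2, SE, adjusted p = 1e-05). Sqle, the squalene epoxidase that adds the first oxygen, was at 20.4, 24.1, 31.2 and 40.4 CPM in cycling Treg, against 6.46, 13.6, 10.7 and 9.35 CPM in resting Treg, again without overlap (1.59 ± 0.32 log2, SE, adjusted p = 0.0001). The other genes of this branch rose by log2 differences of 0.62 to 1.79 in CD8 cells and 0.39 to 1.83 in CD4 conventional cells. In Treg, Lss, Msmo1, Hsd17b7, Sc5d and Dhcr7 had differences of 0.31 to 1.20 that did not pass the test.

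Of the regulators, 3 of 3 rose in cycling CD8 cells, 2 of 3 in CD4 conventional cells and 1 of 3 in Treg. Insig1, itself a known SREBP target, was at 65.1, 57.8, 38.6 and 81.8 CPM in cycling CD4 conventional cells, against 22.4, 26.5, 25.3 and 28 CPM in resting ones, with no overlap (1.32 ± 0.13 log2, SE, adjusted p = 3.5e-08). In CD8 cells it was at 27.6, 33.6, 38.5 and 65.8 CPM when cycling, against 18.0, 16.2, 22.2 and 31.6 CPM when resting. Here the ranges overlapped through resting replicate 4, while each library was higher when cycling (0.95 ± 0.15 log2, SE, adjusted p = 1e-05). Insig1 in cycling Treg was at 36.3, 65.3, 58.4 and 72.4 CPM, against 35.5, 36.0, 32.0 and 50.7 CPM in resting Treg, with overlap and each library higher (0.73 ± 0.20 log2, SE, adjusted p = 0.0026). Srebf2, which encodes the factor that drives the sterol enzymes, was at 79.2, 71.0, 87.7 and 82.5 CPM in cycling CD8 cells, against 55.3, 51.2, 64.1 and 74.0 CPM in resting ones (0.43 ± 0.10 log2, SE, adjusted p = 0.0011). Those ranges overlap, and the difference did not pass the test in CD4 conventional cells (0.17 log2, adjusted p = 0.11) or in Treg (0.26 ± 0.15 log2, SE, adjusted p = 0.15). Srebf1 was at 41.4, 46.4, 39.3 and 43.4 CPM in cycling CD4 conventional cells, against 30.2, 39.3, 32.6 and 35.3 CPM in resting ones, higher in each library (0.38 ± 0.11 log2, SE, adjusted p = 0.0048). The annotated Srebf1 region overlaps Rai1.

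Among the fatty acid genes, 5 of 6 tested rose in CD8 cells and in CD4 conventional cells and 2 of 6 in Treg. Fasn, the fatty acid synthase, was at 54.4, 56.8, 98.2 and 75.5 CPM in cycling CD8 cells, against 21.2, 26.1, 39.3 and 39.5 CPM in resting ones, with no overlap (1.22 ± 0.12 log2, SE, adjusted p = 1.7e-08). It was at 38.9, 71.1, 63.5 and 65.5 CPM in cycling CD4 conventional cells, against 25.3, 28.9, 26.7 and 28.8 CPM in resting ones, also without overlap (1.18 ± 0.12 log2, SE, adjusted p = 1.4e-08). In Treg the 2 ranges of Fasn overlapped, at 36.3, 50.2, 70.1 and 65.5 CPM when cycling against 21.0, 44.7, 28.4 and 40.1 CPM when resting (0.80 ± 0.21 log2, SE, adjusted p = 0.0022). Scd2, a stearoyl-CoA desaturase that makes oleate, was at 44.5, 71.7, 86.5 and 99.7 CPM in cycling CD8 cells, against 27.7, 36.8, 39.3 and 35.6 CPM in resting ones (1.17 ± 0.13 log2, SE, adjusted p = 6.3e-08). In CD4 conventional cells Scd2 was at 77.3, 64.1, 105.1 and 117.8 CPM when cycling, against 36.6, 37.9, 39.1 and 42.5 CPM when resting (1.28 ± 0.11 log2, SE, adjusted p = 1.6e-09). Neither pair of groups overlapped for Scd2. In Treg it was at 29.1, 45.2, 93.5 and 115.6 CPM when cycling, against 33.9, 49.6, 30.2 and 40.1 CPM when resting, and only replicates 3 and 4 were higher when cycling (0.88 ± 0.33 log2, SE, adjusted p = 0.06). Fads1, a desaturase of polyunsaturated fatty acids, was at 11.6, 12.0, 21.4 and 23.7 CPM in cycling Treg, against 4.85, 7.78, 7.11 and 8.01 CPM in resting Treg, without overlap (1.35 ± 0.41 log2, SE, adjusted p = 0.0075). Elovl6, which extends palmitate, did not pass the test with cycling in CD8 cells (-0.09 log2, adjusted p = 0.69), CD4 conventional cells (0.28 log2, adjusted p = 0.2) or Treg (-0.05 log2, adjusted p = 0.88).

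The paralogue Scd1 was almost silent: 2 UMIs in all cycling CD8 cells, beside 769 UMIs of Scd2. Fads2 had 28 UMIs in cycling CD8 cells, at 2.12, 0.00, 4.93 and 2.73 CPM, against 2 UMIs in resting CD8 cells, both from replicate 4. Neither gene passed the filter on low counts in any comparison.

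Cycling cells were also the deeper cells. The median was 7505.5 to 18439 UMIs per cycling CD8 cell, against 3059 to 4539.5 per resting one. In Treg it was 13577.5 to 16832.5 UMIs when cycling, against 3300.5 to 4513 when resting, and in CD4 conventional cells 8909.5 to 16445 when cycling, against 2923 to 3860 when resting. Cells of at least 2000 UMIs were each thinned to 2000 UMIs, and cells with fewer were left out, so the set of cells also changed. Thinning also lowers the power to call genes. Then 11 of 23 tested members were higher in cycling CD8 cells and none lower, against 17.1% of all genes called higher. Thinned CD4 conventional cells gave 13 of 23 against 13.7% of all genes, and thinned Treg 2 of 6 against 13.6%. Fads1 and Fasn, called in Treg at full depth, were too low to be tested in thinned Treg. There Fads1 had 0 UMIs in cycling and 5 UMIs in resting Treg, and Fasn averaged 29.4 against 30.1 CPM. Among cells of 5000 to 15000 UMIs, a limit chosen after the data were seen, 6 of 23 members were higher in cycling CD8 cells and none lower, against 11.4% of all genes, with replicate 1 left out because it had 19 such cycling cells. In CD4 conventional cells of that depth, 9 of 25 were higher and none lower, against 15.8% of all genes called in either direction. The calls left at matched depth were sterol genes except Fads1: Idi1, Fdps, Fdft1, Cyp51, Ebp and Fads1 in CD8 cells, and Hmgcs1, Idi1, Fdps, Fdft1, Sqle, Cyp51, Nsdhl, Ebp and Insig1 in CD4 conventional cells. In CD8 cells of that depth, with replicate 1 left out, Idi1, Fdps, Fdft1 and Cyp51 had log2 differences of 1.17, 0.99, 0.82 and 1.63. Each was smaller than the difference given above for cells of any depth, and the ranges of Fdps and Fdft1 overlapped. At that depth Idi1 was still at 80.8, 58.0, 77.8 and 139.4 CPM in cycling CD4 conventional cells, against 19.1, 25.6, 16.3 and 37.8 CPM in resting ones, with no overlap (1.86 ± 0.19 log2, SE, adjusted p = 2.3e-09). Fasn, Scd2 and Acaca were not called there, and in CD8 cells their log2 differences were -0.10, -0.21 and -0.31. Cycling Treg of that depth numbered 11 to 18 per library, under the minimum of 20. The median UMIs of the groups still differed within the limit, at 9116.5 to 10373 in cycling CD8 cells against 6069 to 6780 in resting ones among the libraries used, and the part of depth in the result was not tested further. With DESeq2, 6 of the 13 members called in Treg were called.

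The difference between cycling and resting was compared between CD8 and CD4 conventional cells in 1 model. None of 26 members differed past the threshold, against 2.54% of all genes, 2 members had an unadjusted p under 0.05, and DESeq2 also called 0. For Idi1 the CD8 change minus the CD4 conventional change was 0.08 log2 (adjusted p = 0.9).

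Cycling cells were a minority in each lineage and held a larger share of the sterol enzyme RNA, and of all RNA, than of cells. They were 13.95% to 32.5% of CD62L-low CD8 cells and held 57.0% to 82.8% of the UMIs of the sterol enzymes, and 37.6% to 65.1% of all UMIs. For Treg, 16.2% to 23.5% of cells were cycling and held 62.5% to 70.3% of the sterol enzyme UMIs and 47.7% to 52.6% of all UMIs. Among CD4 conventional cells, 6.75% to 10.05% of cells held 35.8% to 52.8% of the sterol enzyme UMIs and 21.2% to 33.8% of all UMIs. The members' CD62L and clone size comparisons are therefore given with and without cycling cells.

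CD62L-low cells were set against CD62L-high cells, which asks how the programme differs between cells that have lost the homing receptor and those that keep it, as stem-like and naive T cells do. In CD8 cells, 13 of 26 members were higher in CD62L-low cells and none lower, against 20.8% of all genes called higher and 19.1% lower, with a median log2 difference of 0.50. Without cycling cells, 2 of 26 were called, Elovl6 and Scd2, against 11.9% called higher and 9.76% lower, and the median was 0.03. In CD4 conventional cells, 7 were higher and 1 lower of 26, against 23.9% and 23.1% of all genes, with a median of 0.19. Without cycling cells, 5 were higher and 6 lower, against 41.2% of all genes called in either direction, with a median of -0.03.

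**Figure D3:**
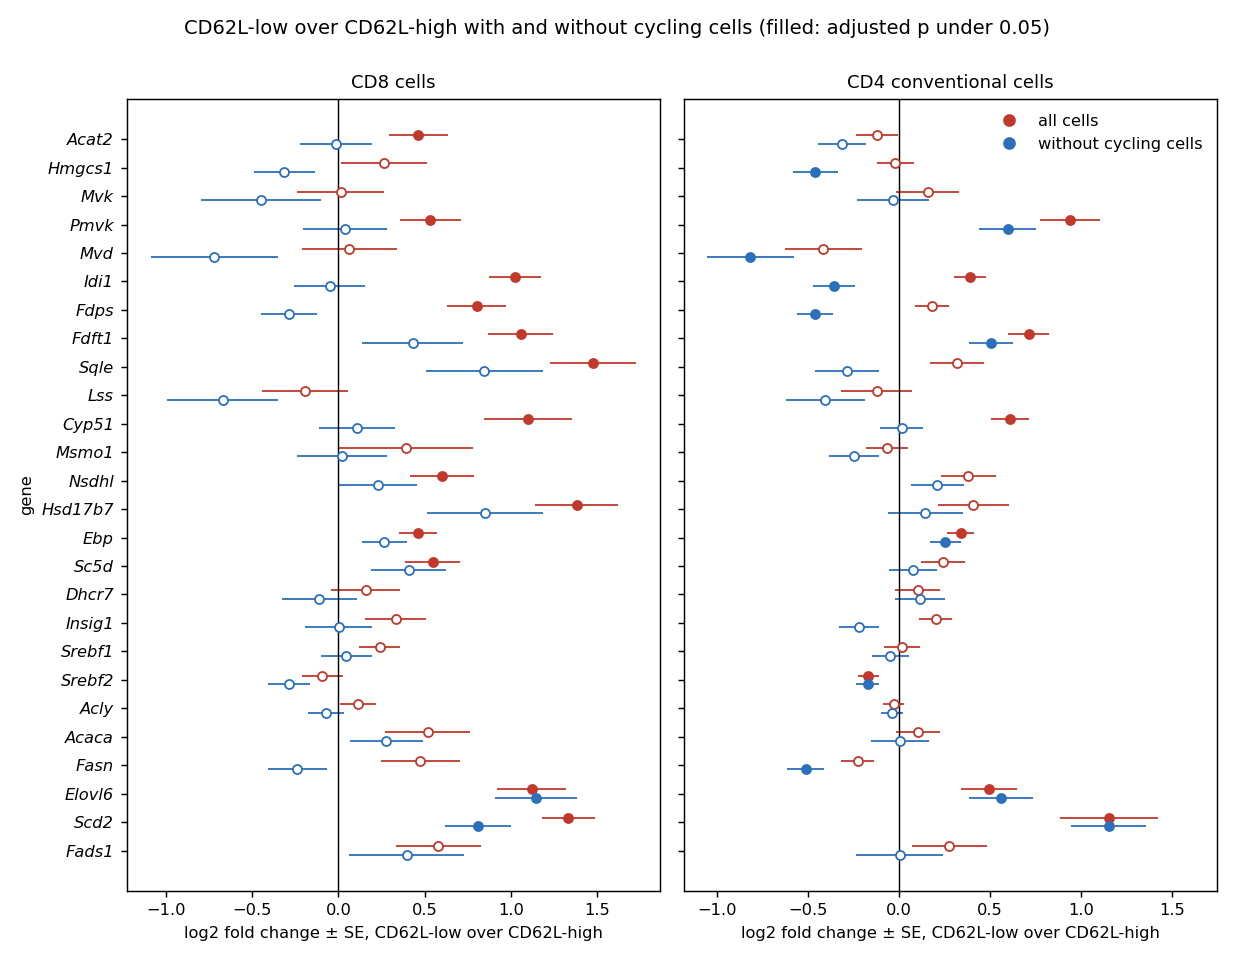
Log2 difference ± SE of each tested member, CD62L-low over CD62L-high, with all cells (red) and without cycling cells (blue), in CD8 and CD4 conventional cells, with filled points where the adjusted p is under 0.05. Idi1 is at 1.02 with all CD8 cells and -0.05 without cycling ones, whereas Elovl6 is at 1.12 and 1.15.

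With all CD8 cells, Idi1 was at 60.6, 49.7, 74.7 and 96.2 CPM in CD62L-low cells, against 27.7, 37.8, 34.6 and 31.4 CPM in CD62L-high cells, with no overlap (1.02 ± 0.15 log2, SE, adjusted p = 0.00015). Fdps was at 55.9, 52.5, 83.7 and 119.5 CPM, against 40.2, 41.0, 37.9 and 43.8 CPM, also apart (0.80 ± 0.17 log2, SE, adjusted p = 0.0034). Without cycling cells, neither gene was higher: Idi1 had a log2 difference of -0.05 and Fdps of -0.29, and neither passed the test. Sqle was at 19.5, 14.9, 29.1 and 34.1 CPM in CD62L-low CD8 cells, against 5.31, 11.0, 12.1 and 6.57 CPM in CD62L-high cells (1.48 ± 0.25 log2, SE, adjusted p = 0.00034). Hsd17b7, a keto-reductase of the late pathway, was at 12.5, 11.8, 20.8 and 14.8 CPM, against 4.55, 3.15, 7.69 and 5.11 CPM (1.38 ± 0.24 log2, SE, adjusted p = 0.00044). The groups stood apart for both genes. Of the regulators, Srebf1 (0.24 log2, adjusted p = 0.13) and Insig1 (0.33 log2, adjusted p = 0.16) did not pass the test.

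Scd2 and Elovl6 were called with and without cycling cells. With all CD8 cells, Scd2 was at 35.7, 49.9, 68.9 and 77.3 CPM in CD62L-low cells, against 15.9, 7.88, 25.8 and 29.2 CPM in CD62L-high cells (1.33 ± 0.16 log2, SE, adjusted p = 1.5e-05). Among resting CD8 cells alone it was at 27.7, 36.8, 39.3 and 35.6 CPM in CD62L-low cells, against 15.6, 8.75, 18.8 and 26.8 CPM in CD62L-high cells (0.81 ± 0.19 log2, SE, adjusted p = 0.0012). Neither comparison overlapped. Elovl6 was at 21.2, 17.7, 20.8 and 26.4 CPM in all CD62L-low CD8 cells, against 8.35, 4.73, 9.89 and 12.4 CPM in CD62L-high ones (1.12 ± 0.20 log2, SE, adjusted p = 0.00055). In resting CD8 cells its level was 21.2, 21.1, 23.8 and 22.6 CPM when CD62L-low, against 8.02, 5.25, 11.6 and 11.4 CPM when CD62L-high, close to the values with all cells (1.15 ± 0.24 log2, SE, adjusted p = 0.00028).

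**Figure D4:**
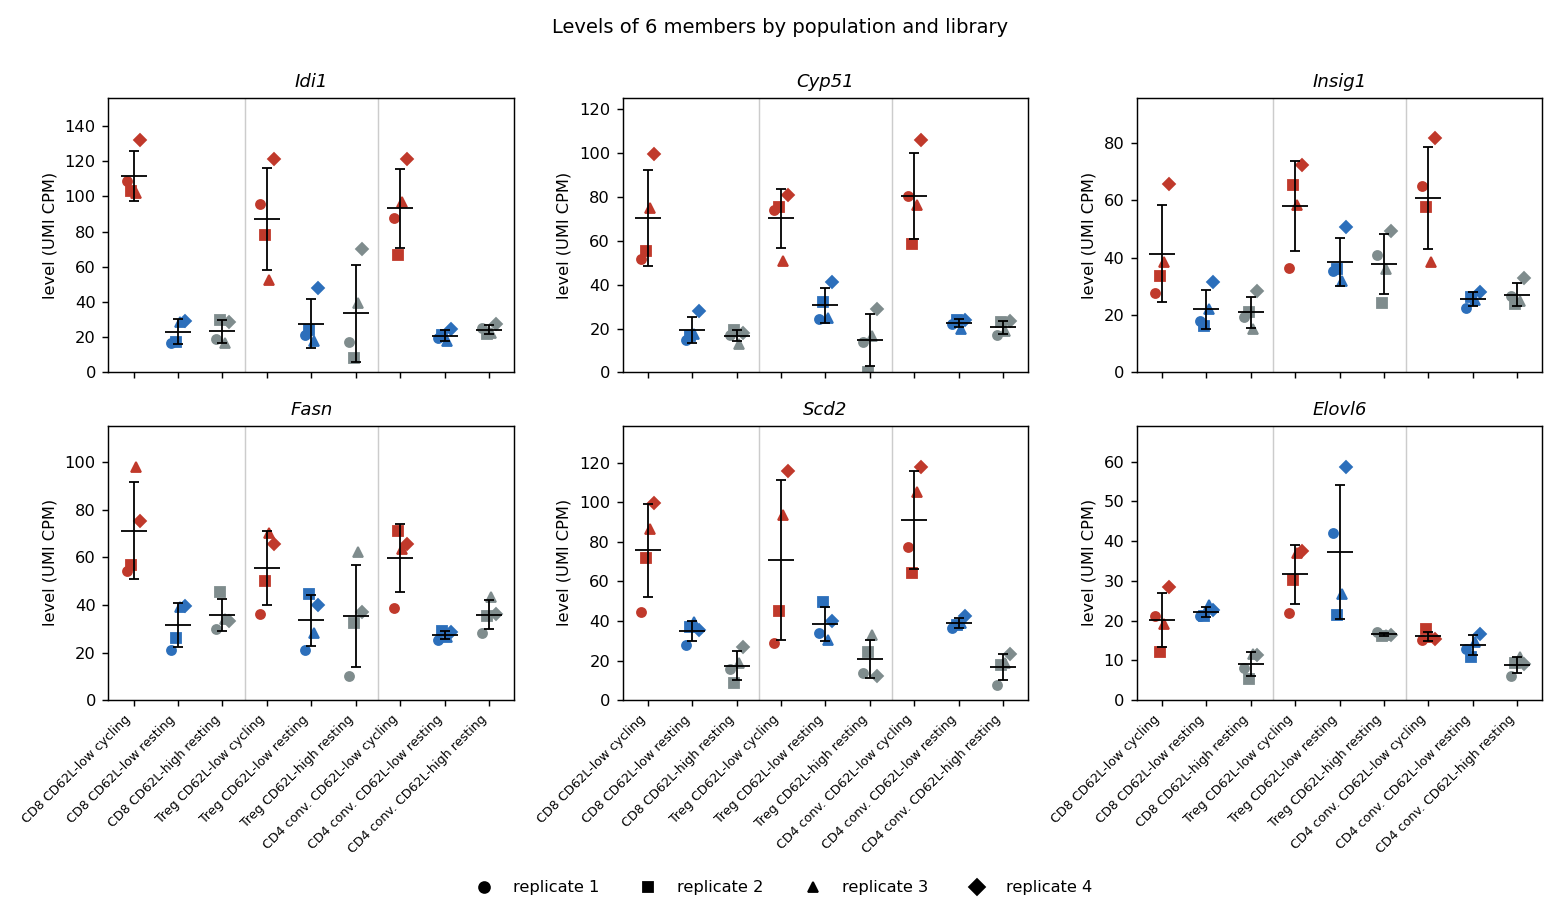
Level (CPM) of Idi1, Cyp51, Insig1, Fasn, Scd2 and Elovl6 in cycling and resting CD62L-low and resting CD62L-high cells of each lineage, with 1 point per library, its replicate given by the symbol, and mean ± SD in black. Scd2 in resting CD8 cells is at 27.7 to 39.3 CPM when CD62L-low, against 8.75 to 26.8 CPM when CD62L-high, and Idi1 in CD8 cells reaches 101.9 to 132.2 CPM only in the cycling group.

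In CD4 conventional cells, Pmvk, the phosphomevalonate kinase, was at 32.4, 23.6, 23.9 and 25.5 CPM when CD62L-low, against 9.92, 12.5, 16.2 and 12.1 CPM when CD62L-high, with no overlap (0.94 ± 0.16 log2, SE, adjusted p = 0.0005). Fdft1 was at 36.7, 29.3, 34.5 and 37.9 CPM, against 16.5, 22.3, 19.8 and 20.4 CPM (0.71 ± 0.11 log2, SE, adjusted p = 7.3e-05). Cyp51 was at 41.8, 32.1, 31.8 and 46.5 CPM, against 19.5, 22.8, 21.9 and 27.7 CPM (0.61 ± 0.11 log2, SE, adjusted p = 0.00018). Both of these genes stood apart between the groups. Scd2 was at 50.3, 44.1, 53.1 and 63.1 CPM, against 10.6, 17.9, 24.1 and 38.1 CPM, with no overlap and a wide range among CD62L-high cells (1.16 ± 0.27 log2, SE, adjusted p = 0.029). This call was lost without replicate 2 (adjusted p = 0.091) and without replicate 3 (adjusted p = 0.099). Elovl6 was at 13.7, 12.5, 14.9 and 16.3 CPM, against 7.14, 9.25, 10.8 and 10.3 CPM (0.50 ± 0.15 log2, SE, adjusted p = 0.014). The lower member was Srebf2, at 75.6, 77.4, 79.6 and 86.4 CPM in CD62L-low cells, against 75.0, 80.0, 81.8 and 88.2 CPM in CD62L-high cells. The ranges of Srebf2 nearly coincide, with replicate 1 higher in CD62L-low cells (-0.17 ± 0.06 log2, SE, adjusted p = 0.029), and the call was lost when any 1 of the 4 replicates was left out. Levels in CPM are not TMM-scaled, whereas the log2 differences are. Without that scaling the median log2 difference over all genes in this comparison was 0.13, against -0.015 with it. Thinned to 2000 UMIs per cell, 5 members were called in CD4 conventional cells, against 33.8% of all genes, and 2 in CD8 cells, against 20.3%.

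Among resting CD4 conventional cells the list split. In that comparison 41.2% of all genes were called in either direction, so the number of calls does not set the list apart. Idi1 turned round: with all cells it was at 42.5, 32.0, 34.7 and 51.2 CPM in CD62L-low cells, against 29.6, 21.8, 26.8 and 31.9 CPM in CD62L-high cells (0.39 ± 0.09 log2, SE, adjusted p = 0.002). In resting cells it was at 19.3, 21.2, 17.9 and 24.9 CPM when CD62L-low, against 25.1, 21.8, 22.6 and 27.3 CPM when CD62L-high, lower in each library though the ranges overlap (-0.36 ± 0.11 log2, SE, adjusted p = 0.015). Fdps in resting cells was at 25.8, 31.8, 29.3 and 30.1 CPM, against 31.4, 42.4, 30.4 and 45.2 CPM (-0.46 ± 0.10 log2, SE, adjusted p = 0.00066). Fasn was lower too, at 25.3, 28.9, 26.7 and 28.8 CPM in CD62L-low cells against 28.4, 35.4, 43.2 and 36.4 CPM in CD62L-high ones (-0.51 ± 0.10 log2, SE, adjusted p = 0.00023). Hmgcs1, Mvd and Srebf2 also fell, by 0.46, 0.81 and 0.17 on the log2 scale. Higher in resting CD62L-low cells were Pmvk (0.60 log2), Fdft1 (0.51), Ebp (0.26), Elovl6 (0.56) and Scd2 (1.15), and none of these 5 overlapped between the groups. Scd2 was at 36.6, 37.9, 39.1 and 42.5 CPM, against 7.75, 17.9, 18.8 and 23.1 CPM (adjusted p = 0.0038).

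The CD62L comparison in Treg called none of 25 members, against 3.88% of all genes, with 1 member at an unadjusted p under 0.05 and 0 called by DESeq2. The Treg groups were small. Without cycling cells, 30 to 66 CD62L-high Treg per library remained and 1 of 17 members was called, against 5.14% of all genes called higher. That gene was Elovl6, at 42.0, 21.4, 26.7 and 58.7 CPM in CD62L-low Treg, against 17.1, 16.2, 16.4 and 16.4 CPM in CD62L-high Treg, with no overlap (1.13 ± 0.37 log2, SE, adjusted p = 0.048).

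The CD62L difference was larger in CD8 than in CD4 conventional cells for Sqle, by 1.12 ± 0.31 log2 (SE, adjusted p = 0.041), and for Idi1, by 0.66 ± 0.19 log2 (SE, adjusted p = 0.047). These were 2 of 26 members, against 1.84% of all genes called higher in this test and 3.12% lower. Both calls were lost without replicate 1, 3 or 4, with DESeq2 and without cycling cells (0 members each, the last against 3.54% of all genes).

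Clone size was read from paired T cell receptor chains among CD62L-low cells: expanded cells belong to clones of 2 or more cells of a library and single cells to clones of 1. Cycling cells were unevenly spread, since 134, 185, 311 and 316 expanded CD8 cells became 80, 135, 174 and 160 without them, while single CD8 cells numbered 139, 164, 84 and 97 without them, with 8, 8, 4 and 9 cycling. In expanded CD8 cells 10 of 26 members were higher and none lower, against 18.5% of all genes called higher and 17.8% lower. Pmvk was at 33.3, 33.5, 30.7 and 29.7 CPM in expanded cells, against 12.6, 14.2, 13.1 and 26.6 CPM in single cells, with no overlap although single cells of replicate 4 came close (0.90 ± 0.24 log2, SE, adjusted p = 0.0063). Sqle was at 27.2, 18.7, 31.7 and 38.9 CPM, against 10.5, 12.3, 13.1 and 15.2 CPM (1.04 ± 0.24 log2, SE, adjusted p = 0.0023). Cyp51 was at 42.4, 38.5, 63.7 and 85.7 CPM, against 22.0, 27.5, 9.33 and 39.9 CPM, with overlap (1.03 ± 0.24 log2, SE, adjusted p = 0.0037). Fdps, Scd2 and Fasn also rose, by log2 differences of 0.55, 0.50 and 0.50, each with overlapping ranges. Insig1 (0.43 log2, adjusted p = 0.12) and Srebf1 (0.39 log2, adjusted p = 0.082) did not pass the test. Without cycling cells, none of 22 members was called in CD8 cells, against 16.2% of all genes, with 1 at an unadjusted p under 0.05, and Idi1 stood at -0.67 log2 (adjusted p = 0.16). Without replicate 3, 6 members were called, and with 1 cell per clonotype 4.

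In expanded CD4 conventional cells, 4 members were higher and 1 lower of 26, against 14.5% of all genes called in each direction. Scd2 was at 68.9, 54.9, 75.6 and 79.9 CPM in expanded cells, against 33.8, 36.2, 37.5 and 53.3 CPM in single cells, with no overlap (0.71 ± 0.11 log2, SE, adjusted p = 6.8e-05). Pmvk was at 41.3, 32.2, 27.6 and 33.7 CPM, against 22.1, 15.4, 20.8 and 19.1 CPM, also apart (0.72 ± 0.14 log2, SE, adjusted p = 0.00071). Cyp51 (0.38 log2, adjusted p = 0.031) and Sqle (0.59 log2, adjusted p = 0.037) were higher and Srebf2 lower (-0.23 log2, adjusted p = 0.046), each with overlapping ranges and each lost without at least 1 replicate. Leaving out replicate 3 gave 2 calls. In resting cells alone, Scd2 and Pmvk remained higher and 6 members were lower: Hmgcs1, Idi1, Msmo1, Srebf2, Fasn and Fads1. That is 2 and 6 of 26, against 11.6% of all genes called higher and 11.0% lower. Scd2 was then at 56.3, 52.4, 47.7 and 53.2 CPM in expanded cells, against 21.3, 29.0, 32.8 and 38.3 CPM in single cells (0.69 ± 0.13 log2, SE, adjusted p = 0.00026). Idi1 was at 12.7, 15.8, 16.5 and 20.4 CPM, against 25.2, 26.3, 17.6 and 29.7 CPM, lower in each library with overlapping ranges (-0.66 ± 0.18 log2, SE, adjusted p = 0.0078).

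**Figure D5:**
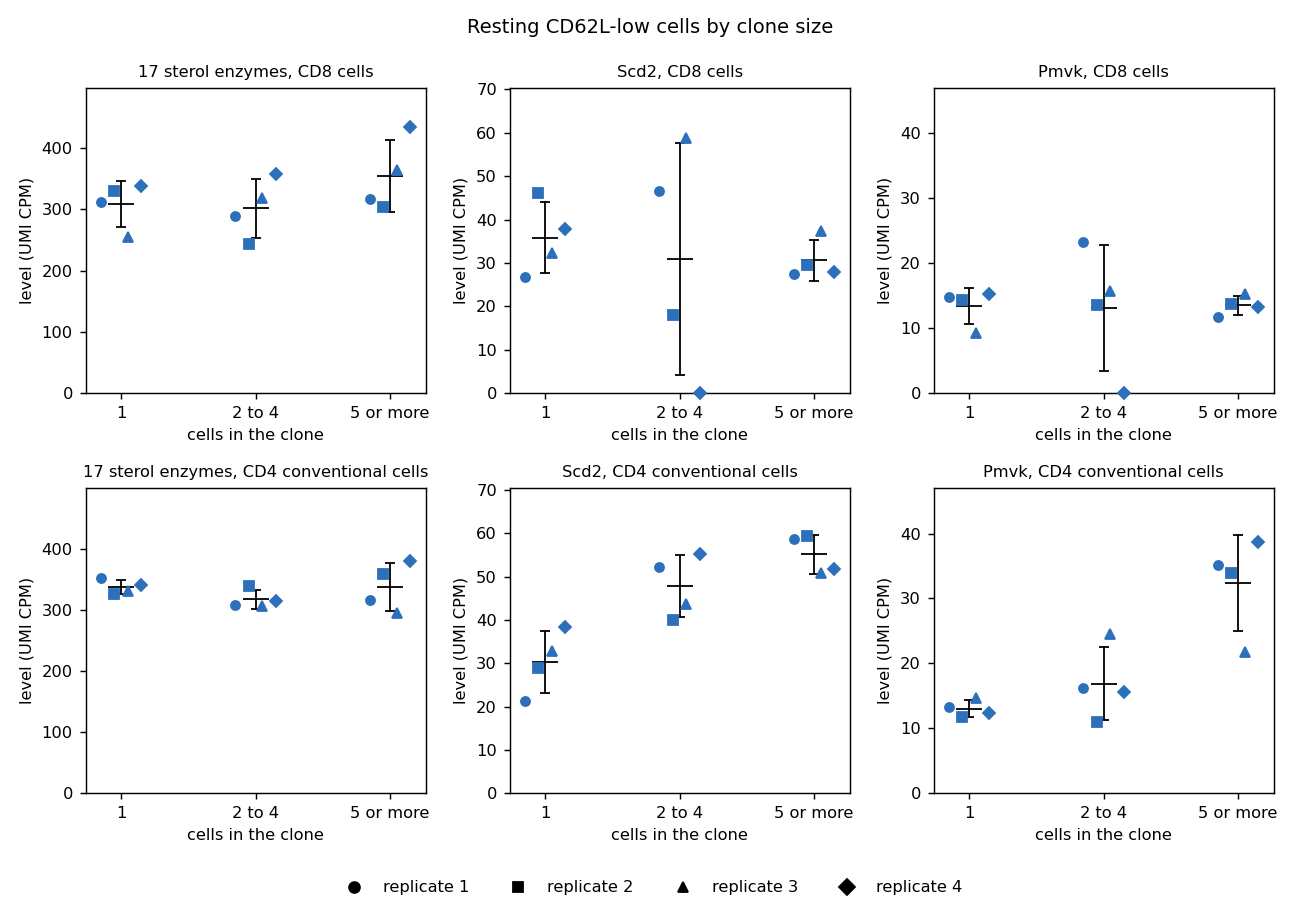
Level (CPM) of the summed sterol enzymes, Scd2 and Pmvk in resting CD62L-low CD8 cells (top) and CD4 conventional cells (bottom) by clone size, 1 cell, 2 to 4 cells and 5 or more cells, with 1 point per library and mean ± SD in black. Scd2 in CD4 conventional cells is at 50.8 to 59.3 CPM in the largest clones, against 21.3 to 38.3 CPM in single cells, and in CD8 cells at 27.4 to 37.4 CPM, against 26.8 to 46.1 CPM.

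In resting cells, levels were also read by class of clone size. Among CD4 conventional cells, the summed sterol enzymes were at 325.9 to 352.1 CPM in single cells, 305.8 to 339.3 CPM in clones of 2 to 4 and 294.5 to 379.4 CPM in clones of 5 or more, and the ranges overlapped. Scd2 was at 21.3 to 38.3 CPM, 40 to 55.2 CPM and 50.8 to 59.3 CPM, so that both classes of expanded cells lay above single cells and overlapped each other. Pmvk was at 11.8 to 14.7 CPM, 11.0 to 24.6 CPM and 21.8 to 38.8 CPM. The classes overlapped in resting CD8 cells, and the difference between the lineages was not tested. There, Scd2 was at 26.8 to 46.1 CPM in single cells, 0 to 58.9 CPM in clones of 2 to 4, which had 26 to 43 cells per library, and 27.4 to 37.4 CPM in clones of 5 or more. Pmvk was at 9.25 to 15.2 CPM in single CD8 cells and 11.7 to 15.2 CPM in clones of 5 or more, and the summed sterol enzymes were at 254.4 to 338.4 CPM and 304.5 to 434.1 CPM, each with overlap. In Treg, where replicate 3 was left out with 18 expanded cells, none of 22 members was called by clone size, against 0.153% of all genes, with 2 at an unadjusted p under 0.05 and 0 called by DESeq2. Without cycling cells none of 13 Treg members was called, against 2.38%, also with 2 at an unadjusted p under 0.05.

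Lineages were compared among resting cells. In CD62L-low CD8 cells over CD4 conventional cells, 3 of 26 members were higher and 1 lower, against 12.3% and 12.0% of all genes. Elovl6 was at 21.2, 21.1, 23.8 and 22.6 CPM in CD8 cells, against 12.9, 10.8, 14.7 and 16.7 CPM in CD4 conventional cells, with no overlap (0.74 ± 0.16 log2, SE, adjusted p = 0.0011). Hmgcs1 was at 27.0, 22.9, 26.4 and 29.9 CPM, against 20.1, 14.7, 19.6 and 21.4 CPM (0.54 ± 0.13 log2, SE, adjusted p = 0.0046). Acaca, the acetyl-CoA carboxylase, was at 21.9, 26.1, 20.2 and 22.0 CPM, against 13.1, 12.4, 18.5 and 18.8 CPM, also apart (0.57 ± 0.17 log2, SE, adjusted p = 0.016). The annotated Acaca region overlaps Tada2a and Gm11437, and whether reads were counted by strand is not stated. Srebf2 was lower, at 55.3, 51.2, 64.1 and 74.0 CPM in CD8 cells against 72.2, 80.0, 77.2 and 83.4 CPM in CD4 conventional cells (-0.32 ± 0.09 log2, SE, adjusted p = 0.011). The Acaca and Srebf2 calls were lost without replicate 2, and DESeq2 called 0 of these members.

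In resting CD62L-low Treg over CD4 conventional cells, 4 of 26 members were higher and none lower, against 10.7% and 9.13% of all genes. Elovl6 was at 42.0, 21.4, 26.7 and 58.7 CPM in Treg, against 12.9, 10.8, 14.7 and 16.7 CPM in CD4 conventional cells, with no overlap and with Treg of replicates 1 and 4 highest (1.34 ± 0.20 log2, SE, adjusted p = 1.3e-06). Fdft1 was at 45.2, 42.8, 33.8 and 42.7 CPM, against 25.8, 27.9, 28.5 and 25.6 CPM (0.55 ± 0.16 log2, SE, adjusted p = 0.011). Insig1 (0.52 log2, adjusted p = 0.021) and Ebp (0.32 log2, adjusted p = 0.039) were higher and did not overlap. The count was 1 without replicate 4 and 1 with DESeq2. Summed acinar markers reached 1263.3 CPM in resting Treg, and their part in the result was not tested. In CD62L-high CD8 cells over CD4 conventional cells, none was higher and 2 of 26 were lower, against 11.4% and 10.1% of all genes. Sqle was at 3.38, 5.25, 6.51 and 6.49 CPM in CD8 cells, against 9.64, 11.4, 11.3 and 9.43 CPM in CD4 conventional cells (-0.97 ± 0.31 log2, SE, adjusted p = 0.0092). Msmo1 was at 16.0, 17.5, 13.7 and 8.11 CPM, against 19.1, 18.5, 17.6 and 24.7 CPM (-0.50 ± 0.19 log2, SE, adjusted p = 0.046). Both stood apart between the groups, and both were lost without replicate 1 and with DESeq2.

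Other genes of lipid handling were counted from lists drawn up by function. Of 9 tested sterol genes outside the 28, 7 rose and 2 fell in cycling CD8 cells, 7 rose and 2 fell in CD4 conventional cells, and 6 rose and none fell in Treg. The shares of all genes called higher and lower by cycling, for these and the next lists, were 29.7% and 29.0% in CD8 cells, 29.4% and 29.7% in CD4 conventional cells and 24.6% and 20.5% in Treg. Tmem97, a sterol-regulated membrane protein, was at 40.3, 38.8, 57.9 and 54.9 CPM in cycling CD8 cells, against 3.86, 4.04, 7.75 and 10.2 CPM in resting ones (2.93 ± 0.19 log2, SE, adjusted p = 2.4e-11). The groups did not overlap. The depth limit used above for the members was also applied, with replicate 1 again left out. Tmem97 was then at 7.16, 24.3 and 25.2 CPM in cycling CD8 cells, against 4.25, 10.2 and 10.8 CPM in resting ones. Those groups overlapped, and the difference did not pass the test (1.133 ± 0.439 log2, SE, adjusted p = 0.071). Lbr, the nuclear envelope protein that is also a sterol reductase, rose in cycling CD8 cells (0.79 ± 0.07 log2, SE, adjusted p = 7.1e-09). It was still called within the depth limit (0.698 ± 0.158 log2, SE, adjusted p = 0.0017). Of the genes that process or hold SREBP none was called higher: 2 of 7 fell in CD8 cells, 2 of 7 in CD4 conventional cells and 1 of 6 in Treg, shares near those of all genes. Mbtps1, the Golgi protease that begins SREBP cleavage, was at 48.1, 36.6, 38.5 and 37.9 CPM in cycling CD8 cells, against 57.3, 62.4, 62.5 and 57.6 CPM in resting ones (-0.55 ± 0.12 log2, SE, adjusted p = 0.00048). Insig2 fell by 0.62 on the log2 scale there, and Rnf139, a ubiquitin ligase of the endoplasmic reticulum, fell by 0.65 in Treg. Within the depth limit Mbtps1 was still called in CD8 cells (-0.67 log2, adjusted p = 0.034) and Insig2 was not (-0.65 log2, adjusted p = 0.16).

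Another list, called export and LXR here, held Abca1, Abcg1, Mylip, Nr1h2, Nr1h3, Soat1, Lpcat3, Npc1 and Npc2. It covers cholesterol export and the sterol sensors LXR, but also other steps such as esterification and lysosomal transport. Of its genes, 5 of 7 tested were lower in cycling CD8 cells, against 29.0% of all genes, 5 of 7 in CD4 conventional cells, against 29.7%, and 4 of 7 in Treg, against 20.5%. None was higher, and the others did not pass the test. Mylip, a ubiquitin ligase induced by LXR, was at 7.78, 4.48, 7.08 and 3.64 CPM in cycling CD8 cells, against 37.3, 44.9, 36.7 and 37.8 CPM in resting ones (-2.72 ± 0.22 log2, SE, adjusted p = 5e-10). Npc2, the lysosomal cholesterol carrier, was at 154.1, 159.1, 158.9 and 195.8 CPM, against 458.0, 391.8, 345.7 and 424.5 CPM (-1.22 ± 0.08 log2, SE, adjusted p = 4.5e-11). The cycling libraries lay below every resting library for both. Within the depth limit used above, Mylip and Npc2 were still called in CD8 cells (-1.726 and -0.512 log2, adjusted p = 0.00066 and 0.006). Npc2 was also lower in CD62L-low than in CD62L-high cells without cycling cells, by -0.62 ± 0.07 log2 in CD8 cells (SE, adjusted p = 1.2e-09) and -1.05 ± 0.04 log2 in CD4 conventional cells (SE, adjusted p = 5.2e-17). In the fatty acid lists, Fabp5, a fatty acid carrier, was at 180.9, 131.5, 201.0 and 194.9 CPM in cycling CD8 cells, against 12.9, 14.8, 39.3 and 36.1 CPM in resting ones (2.83 ± 0.22 log2, SE, adjusted p = 4.8e-05). Of fatty acid genes outside the 28, 2 were higher and 1 lower of 10 in CD8 cells, 5 higher and 1 lower of 10 in CD4 conventional cells and 2 higher of 9 in Treg. The fatty acid oxidation list had 3 higher and 1 lower of 9 in CD8 cells, 4 higher and none lower of 9 in CD4 conventional cells and 1 higher of 8 in Treg, Acadl among the higher ones in each lineage (1.11, 1.10 and 1.03 log2).

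The same lists were counted by CD62L and clone size. In CD62L-low CD8 cells, where 20.8% of all genes were higher and 19.1% lower, 3 of 9 sterol genes were higher and 2 lower, none of 7 SREBP-processing genes was called, 2 of 10 fatty acid genes were higher and 2 lower, 1 of 8 export and LXR genes was higher and 5 lower, and 2 of 9 oxidation genes were higher and 1 lower. Without cycling cells the export and LXR list had 1 higher and 2 lower of 8, against 11.9% and 9.76% of all genes. In CD62L-low CD4 conventional cells, where 23.9% of all genes were higher and 23.1% lower, the counts were 2 higher and 3 lower of 9, 0 higher and 1 lower of 7, 2 higher and 4 lower of 10, 1 higher and 6 lower of 8, and 3 higher and 1 lower of 9, in the same order. Without cycling cells the export and LXR list had 1 higher and 5 lower of 8 there, against 41.2% of all genes called in either direction. Acss2, which makes acetyl-CoA from acetate, was at 7.68, 5.25, 6.58 and 7.15 CPM in CD62L-low CD4 conventional cells, against 17.8, 16.9, 14.9 and 15.3 CPM in CD62L-high ones, with no overlap (-1.41 ± 0.16 log2, SE, adjusted p = 2.6e-06). Without cycling cells its difference was -1.17 ± 0.16 log2 (SE, adjusted p = 1.5e-06). In CD62L-low Treg, Fabp5 was the only gene called in the 5 lists, at 86.5, 127.4, 146.8 and 135.6 CPM against 71.8, 38.4, 55.2 and 78.2 CPM in CD62L-high Treg (0.88 ± 0.20 log2, SE, adjusted p = 0.014). That call was lost without replicate 3 (adjusted p = 0.16) and with DESeq2. Without cycling cells Fabp5 was at 54.9, 59.3, 85.3 and 65.4 CPM in CD62L-low Treg, against 10.3, 40.6, 39.4 and 28.7 CPM in CD62L-high Treg (1.19 ± 0.29 log2, SE, adjusted p = 0.0055). In expanded CD8 cells, with 18.5% of all genes higher and 17.8% lower, 3 of 9 sterol genes were higher and 2 lower, and 4 of 7 export and LXR genes were lower and none higher. Without cycling cells these became 0 higher and 1 lower of 5 sterol genes and 0 higher and 1 lower of 7 export and LXR genes. The share of all genes called in either direction was then 16.2%. In expanded CD4 conventional cells, with 14.5% of all genes called in each direction, 2 of 9 sterol genes were higher and 2 lower, and 1 of 7 export and LXR genes was higher and 4 lower. Without cycling cells they were 1 higher and 2 lower of 9 and 1 higher and 3 lower of 7, against 11.6% of all genes called higher and 11.0% lower. Fabp5 was at 144.0, 96.2, 166.4 and 166.1 CPM in expanded CD8 cells, against 30.4, 15.2, 44.8 and 38.0 CPM in single CD8 cells, with no overlap (2.11 ± 0.14 log2, SE, adjusted p = 3.2e-09). Without cycling cells it was at 12.8, 15.1, 44.1 and 45.5 CPM in expanded CD8 cells, against 12.1, 12.1, 6.94 and 5.05 CPM in single ones (1.28 ± 0.39 log2, SE, adjusted p = 0.025). The ranges did not overlap, but replicates 1 and 2 differed little. Single cells of replicates 3 and 4 held 432403 and 395958 UMIs of all genes, so their low levels rest on few molecules.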

How the data were processed

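Single-cell libraries of islet T cells were made with 5′ 10x chemistry, per the labels' protocols, and the deposited counts are whole UMIs per gene and cell barcode, not normalized, with antibody counts in the same tables. Cell Ranger 4.0.0 is named in the file headers. The build mm10 and Seurat are named, without a role, in the submitters' processing notes. The authors also deposited T cell receptor contig tables. Kept cells had at least 500 UMIs, 300 genes and 1 UMI of a Cd3 gene, at most 8% mitochondrial UMIs, at most 1 TRB chain and at most 1 UMI each of B cell and myeloid markers, and no doublet caller was run. CD8 cells had under 20 CD4 antibody UMIs and at least 2 of Cd8a and Cd8b1, and CD4 cells at least 40 and 0. UMIs were summed per library and group (at least 20 cells) and tested with edgeR 4.0.16 (R 4.3.3, quasi-likelihood, robust, TMM scaling, low-count filter, replicate as block) over all genes, with Benjamini-Hochberg adjustment at 0.05. SE is the log2 difference divided by the root of F. Groups of 1 replicate come from 1 library, so replicates pair by design. The correlation of their deviations was 0.0414 to 0.351 in comparisons of CD8 and CD4 conventional cells and -0.0735 to 0.159 in the Treg comparisons of cycling, CD62L and clone size. Alternatives were DESeq2 1.42.0, other scaling, filters and gates, cells thinned to 2000 UMIs (without cells of fewer UMIs) and each replicate left out. On simulated data 42.5% to 86.0% of 2-fold changes were recovered. Genes named with values per library are the 2 tested members of smallest adjusted p in each role group, Scd1 and Scd2, and the 2 called genes of smallest adjusted p of a list. Some genes this rule names are not reported here. Others named were chosen after their values were seen. The members and lists were chosen with earlier results of these data known. Samples of antibody libraries were not analysed here as files of their own.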

Additional observations from a re-analysis of the deposited data

Results flagged for a closer look

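In 5 of 179 groups of 4 libraries checked, 1 library lay far from the other 3 for a value named here, where chance gives about 1 in 20. The summed sterol enzymes were at 902.4 CPM in cycling Treg of replicate 4, above the other 3 libraries. Fdps was at 59.9 CPM in single CD4 conventional cells of replicate 4, and Pmvk at 26.6 CPM in single CD8 cells of replicate 4, each above the others of its group. Ebp was at 67.7 CPM in cycling CD4 conventional cells of replicate 1, and Acaca at 9.74 CPM in CD62L-high resting CD8 cells of replicate 4, each below the others. For Idi1 and Sqle the CD62L difference was larger in CD8 than in CD4 conventional cells, by 0.664 and 1.125 log2, in the model that tests this difference (edgeR adjusted p of 0.047 and 0.041), and neither was called without cycling cells.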

How the results depend on the processing

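Over 199 calls of members and other named genes and 2648 alternatives, 2230 kept direction and call, 395 kept the direction and lost the call and 23 turned round. Leaving out cycling cells turned round Idi1 (-0.357 log2, adjusted p = 0.015 with edgeR) and Fdps (-0.460) for CD62L in CD4 conventional cells, Idi1 (-0.051), Fdps (-0.286) and Acat2 (-0.015) for CD62L in CD8 cells, Cyp51 (-0.100) for clone size in CD4 conventional cells, where Hmgcs1 (-0.514) and Idi1 (-0.662) also turned though not called with all cells (as for Fdps in the CD62L comparison), and Fdps (-0.341), Pmvk (-0.003), Scd2 (-0.291), Fasn (-0.320) and Idi1 (-0.674) for clone size in CD8 cells. Thinning to 2000 UMIs turned Pmvk (-0.305) and Sc5d (-0.037) for CD62L in CD8 cells, Scd2 (-0.058) for clone size in CD8 cells, Acly (-0.111) for cycling in CD4 conventional cells and Nsdhl (-0.091) for cycling in CD8 cells. Among cells of 5000 to 15000 UMIs, chosen after seeing the data, Rnf139 (0.033), Mvk (-0.031) and Acaca (-0.188) turned for cycling in CD4 conventional cells, and Srebf2 (-0.061), Fasn (-0.104), Scd2 (-0.209) and Acaca (-0.306) in CD8 cells. Without the limits on B cell and myeloid UMIs, Abca1 turned (-0.018) in CD62L-high CD8 over CD4 conventional cells. The cause was not tested in any of these.

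Members called moved by over 1.5 times in these cases. Thinned to 2000 UMIs, they were 5 for CD62L in CD4 conventional and 2 in CD8 cells, 0 for clone size in CD8 cells, 13, 11 and 2 for cycling in CD4 conventional cells, CD8 cells and Treg, 2, 1 and 2 for lineage in CD62L-low CD8 cells, CD62L-high CD8 cells and Treg, and 0 for the CD62L interaction. At 5000 to 15000 UMIs they were 9 and 6 for cycling in CD4 conventional and CD8 cells. Without cycling cells they were 2 and 1 for CD62L in CD8 cells and Treg, 8 and 0 for clone size in CD4 conventional and CD8 cells, and 0 for the interaction. With DESeq2 they were 2 and 5 for clone size in CD4 conventional and CD8 cells, 6 for cycling in Treg, 0, 0 and 1 for lineage in CD62L-low CD8 cells, CD62L-high CD8 cells and Treg, and 0 for the interaction. With no replicate block they were 2 and 6 for clone size in CD4 conventional and CD8 cells, 1 for CD62L-high CD8 cells over CD4 conventional cells and 0 for the interaction, and the block moved no other count of members by over 1.5 times. Without the limits on B cell and myeloid UMIs they were 2 for CD62L and 1 for clone size in Treg, 1 for CD62L-high CD8 cells and 1 for the interaction. With cells of any CD62L count, clone size gave 10 in CD4 conventional cells, 19 in CD8 cells and 1 in Treg. With 1 cell per clonotype it gave 2 and 4 in CD4 conventional and CD8 cells. In CD62L-high CD8 cells over CD4 conventional cells, 1 was called with no filter on low counts and 1 with only cells with a TRB chain. CD62L at most 1 against at least 20 gave 0 for the interaction.

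Leaving out 1 replicate at a time gave 23 to 25 for cycling in CD8 cells, 23 to 24 in CD4 conventional cells and 11 to 14 in Treg. It gave 9 to 17, 6 to 11 and 0 to 0 for CD62L in CD8 cells, CD4 conventional cells and Treg, and 6 to 9, 2 to 5 and 0 to 0 for clone size in the same order. It gave 2 to 4, 0 to 2 and 1 to 3 for lineage in CD62L-low CD8 cells, CD62L-high CD8 cells and Treg, 0 to 3 for the CD62L interaction and 0 to 0 for the cycling interaction.

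Medians over all genes differed by under 0.1 log2 between TMM and DESeq2's size factors. Without scaling they moved to 0.13 for CD62L in CD4 conventional cells, -0.11 for cycling in CD4 conventional cells and -0.17 for cycling in Treg. In CD8 cells they moved to 0.098 for CD62L and 0.095 for clone size. Depth limits Treg and the low genes Mvd, Mvk, Lss, Scd1 and Fads2 most.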

Other observations

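Some lipid genes outside the 28 differed between lineages of resting cells. Fabp5 was at 54.9, 59.3, 85.3 and 65.4 CPM in CD62L-low Treg, against 17.5, 15.1, 20.4 and 24.3 CPM in CD4 conventional cells, with no overlap (1.71 ± 0.16 log2, SE, edgeR adjusted p = 1.1e-11). Hacd3, a dehydratase of fatty acid elongation, was at 92.1, 87.5, 110.2 and 105.5 CPM in Treg, against 49.8, 55.2, 60.7 and 51.8 CPM (0.78 ± 0.11 log2, SE, edgeR adjusted p = 3e-07). For both genes every Treg library lay above every CD4 conventional library. Soat1, which esterifies cholesterol, was at 42.3, 46.0, 36.9 and 34.5 CPM in resting CD62L-low CD4 conventional cells, against 19.7, 17.4, 15.1 and 18.2 CPM in CD62L-high ones (1.04 ± 0.11 log2, SE, edgeR adjusted p = 2.2e-08), and was chosen after its values were seen.

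Across the 24 resting sums (3 lineages, low and high CD62L, 4 libraries) and 3354 genes with a mean of at least 50 CPM, the genes whose library-centred log2 level ran most like the summed sterol enzymes were Hnrnpk (Pearson r = 0.851), Ergic2 (0.803), Mapkapk2 (0.795), Fam96b (0.795), Ghitm (0.790), Xiap (0.787), Ywhae (0.780) and Cops2 (0.772). The sums share libraries and depth, and the values are a description.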
